A study of Homo sapiens with 8 samples.

Results

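The promoters of AATF and of 8 genes of the p53 pathway (MDM2, MDM4, CDKN1A, ATM, ATR, CHEK2, TP53BP1 and PPM1D) were examined for FLI1 binding in OCI-Ly1 and VAL, which are established human cell lines of germinal center B-cell (GCB) diffuse large B-cell lymphoma (DLBCL). These 9 genes were chosen for their function, with earlier results of these data known, out of 20149 protein coding genes of the annotation. For each gene and library, the best peak was the one with the highest -log10 q, the caller's adjusted p-value, among all listed peaks centred within 3 kb of any annotated transcription start site (TSS). FLI1 was immunoprecipitated from untreated cells with a rabbit polyclonal antibody in several parallel precipitations that were pooled, in 2 replicates per line, beside 4 samples of input DNA that were not analysed here. According to the study, OCI-Ly1 bears a BCL2 translocation and VAL translocations of both BCL2 and MYC, and each line is a single culture model without a normal B-cell counterpart in the series.

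p53 is a transcription factor that halts the cell cycle or triggers apoptosis after DNA damage. The kinases ATM and ATR respond to the damage, TP53BP1 gathers at double-strand breaks, and the signal reaches p53 in part through CHEK2. MDM2 and MDM4 hold p53 down, PPM1D (the phosphatase WIP1) switches the kinases and p53 off again, and CDKN1A (p21) is the classical p53 target that stops the cell cycle. AATF, also called Che-1, binds RNA polymerase II, is phosphorylated by the damage kinases and favours survival over apoptosis. FLI1 belongs to the ETS family, whose members bind DNA around a GGAA core.

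A peak is called passing where its -log10 q reaches 3, an FDR of 0.001. Replicate 2 of OCI-Ly1 had 5354 passing peaks, and the VAL libraries had 973 (replicate 1) and 6474 (replicate 2), among 237178 to 1107379 listed ones. In these 3 libraries, in the same order, being listed says little about a gene, since 98.8%, 74.9% and 98.5% of the protein coding genes had some listed promoter peak. The fewest reads at the summit of a passing peak, as inferred from the fold enrichment and the p-value, were 6, 8 and 6. For replicate 1 of OCI-Ly1 the list has 37 intervals, and 33 of these are longer than 1 Mb. At each of the 9 genes it has only an interval spanning most of a chromosome or of a chromosome arm, with a -log10 q of 1.06, so it was left out. OCI-Ly1 therefore rests on 1 library, replicate 2, called OCI-Ly1 from here on, and the labels do not say whether the VAL replicates came from separate cultures.

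FLI1 peaks passed at 4 of the 9 promoters, AATF, MDM4, ATM and ATR, and their reference sequences are shown because each peak covered at least 1 copy of the ETS motif. The motif was searched on both strands as CCGGAAA or CCGGAAG, which contain the shorter GGAA, within 100 bp of the canonical TSS. The sequences are from GRCh37, written 5′ to 3′ on the strand of the gene with the motif in capitals, and TTTCCGG and CTTCCGG are the motif on the opposite strand.
AATF, chr17:35306250-35306279, plus strand: ccgcgcgcctcCCGGAAGtggccggtccag
MDM4, chr1:204485466-204485495, plus strand: atggTTTCCGGaggcctcaCCGGAAGccct
MDM4, chr1:204485506-204485535, plus strand: cgtgtgggaggCCGGAAGttgcggcttcat
ATM, chr11:108093769-108093798, plus strand: cagggtttgaaCCGGAAGcgggagtaggta
ATR, chr3:142297652-142297681, minus strand: ggccagtagcggCTTCCGGgaggagttttg
ATR, chr3:142297603-142297632, minus strand: gggcgccgcgctCTTCCGGcagcggtagct
The motif of AATF lies in the 5′ untranslated region of its canonical transcript, 10 bp after the TSS. At MDM4 the 3 motifs lie 61, 46 and 14 bp upstream of the TSS, at ATM the motif lies 11 bp upstream, and at ATR they lie 91 and 42 bp upstream. None of the other 5 genes (MDM2, CDKN1A, CHEK2, TP53BP1 and PPM1D) had the motif within 100 bp of the canonical TSS. Among 19869 protein coding genes with a canonical transcript, 14.3% had it there.

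Of the 9 genes, 4 passed in OCI-Ly1 (44.4%), against 19.0% of all protein coding genes. VAL replicate 2 had the same 4 genes, against 20.8% of all protein coding genes. In VAL replicate 1 none of the 9 passed, against 3.14%. All 4 genes passed in both lines, against 12.6% of the protein coding genes, and the remaining 5 passed in neither, while 27.4% of the protein coding genes passed in at least 1 line. The median of the highest -log10 q over the 9 genes was 2.30 in OCI-Ly1, and in VAL it was 0.285 (replicate 1) and 1.68 (replicate 2). Over all protein coding genes it was 1.22, 0.183 and 1.63. The median was thus close to that of all genes in VAL replicate 2 and above it in OCI-Ly1 and VAL replicate 1. In OCI-Ly1 and VAL replicate 2 it was the value of MDM2, a gene that did not pass. Of the 9 genes, 4 had a passing peak in OCI-Ly1 and VAL replicate 2, and 5 stayed under the threshold. The 9 genes have more annotated TSS than most (8 to 42 per gene, median 16, against a median of 5), which widens the window searched. With the 5′ end of each gene as its only TSS, the same 4 genes passed in OCI-Ly1 and in VAL replicate 2, against 16.1% and 17.4% of the protein coding genes, and none in VAL replicate 1, against 2.61%.

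**Figure D1:**
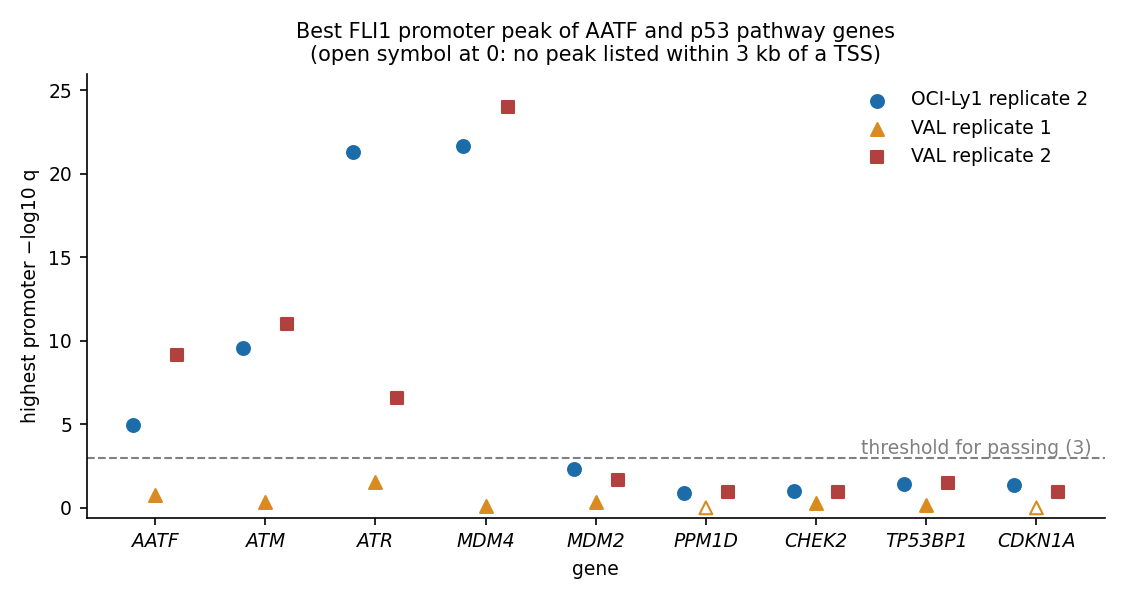
The vertical axis gives the highest -log10 q of a FLI1 peak centred within 3 kb of a TSS, the horizontal axis the 9 genes, and each symbol is 1 library. AATF, ATM, ATR and MDM4 lie above the threshold of 3 in OCI-Ly1 and VAL replicate 2, and all symbols of VAL replicate 1 lie below it.

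AATF (ENSG00000275700) lies on the plus strand of chromosome 17 of GRCh37, from 35306225 to 35414171. In OCI-Ly1 its best peak, from 35306059 to 35306595, had a fold enrichment of 6.19 over the local background, a -log10 q of 4.94 and, at its summit, 9 reads. In VAL replicate 2 the peak ran from 35305850 to 35306567 with a fold of 8.48, a -log10 q of 9.13 and 11 reads. Both passed, and these peaks were ranked 2719 of 5354 and 1316 of 6474 among the passing peaks of their libraries, lists of different length. In VAL replicate 1 a listed peak overlapped them with a fold of 3.15 and a -log10 q of 0.757, and did not pass. It also had 9 reads, as in OCI-Ly1, but over a local background of 2.18 reads in place of 0.615. The summits lay 50 bp upstream of the canonical TSS in OCI-Ly1, 166 bp upstream in VAL replicate 1 and 2 bp downstream of it in VAL replicate 2. The middle of the motif was 60, 176 and 8 bp from these summits, so that it fell within 50 bp of the summit in VAL replicate 2 alone. The AATF peak was centred within 3 kb of no other annotated gene's TSS, and no other passing peak lay in the gene or 10 kb to either side of it.

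MDM4 (ENSG00000198625; chromosome 1, 204485507 to 204527248), which blocks the transactivating activity of p53, had the highest values of the 9 genes in both libraries in which it passed. The fold enrichment in OCI-Ly1 was 14.2, with a -log10 q of 21.7 and 20 reads over a background of 0.475. VAL replicate 2 had a fold of 13.5, a -log10 q of 24.0 and 27 reads over a background of 1.08. These values exceeded those of 98.7% and 98.9% of the protein coding genes, and the peaks ranked 282nd and 263rd among the passing peaks. The summits were 12 bp apart, 30 and 18 bp upstream of the canonical TSS, and all 3 motifs lay within 50 bp of each. VAL replicate 1 had no peak at this site in the list used here, and whether that list holds every row was not tested. Its nearest listed summit was 5543 bp upstream, and its best promoter value for MDM4, a -log10 q of 0.129, came from an intronic peak 22515 bp downstream. Of the 132 protein coding genes with a -log10 q at least as high as that of MDM4 in both OCI-Ly1 and VAL replicate 2, 124 (93.9%) passed in VAL replicate 1. MDM4, which sets the lower bound of that group, was the 1 gene of the 132 without any overlapping listed peak in that library (0.758%).

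ATM (ENSG00000149311; chromosome 11, 108093771 to 108239829) encodes the kinase activated by double-strand breaks. In OCI-Ly1 the peak from 108093159 to 108094013 had a fold of 8.54, a -log10 q of 9.54 and 13 reads. In VAL replicate 2 the peak from 108093387 to 108094134 had a fold of 9.39, 11 reads and a -log10 q of 11.01. The summits lay 15 bp apart, 3 and 18 bp upstream of the canonical TSS, and 8 and 7 bp from the middle of the motif. The same peak counted for NPAT, a regulator of histone gene transcription that is transcribed in the opposite direction, whose nearest TSS was 426 and 411 bp from the summits, and the peak cannot be assigned to 1 of both genes. The list of VAL replicate 1, whose completeness was not tested, had no peak at the site, and its nearest summit was 5838 bp upstream. OCI-Ly1 held a further passing peak inside ATM, in an intron from 108125464 to 108125809, 2088 bp from an internal TSS. It was close to the threshold (-log10 q 3.10, fold 5.08, 6 reads), lacked the motif within 50 bp of the summit and had no listed counterpart in either VAL library.

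ATR (ENSG00000175054; chromosome 3, 142167849 to 142297575, minus strand), the kinase that responds to stalled replication, had a peak in each of the 3 libraries at the same site. OCI-Ly1 had a fold of 14.2, a -log10 q of 21.3 and 19 reads. VAL replicate 2 had a fold of 7.04, a -log10 q of 6.56 and 8 reads, and VAL replicate 1 a fold of 3.78, a -log10 q of 1.53 and 11 reads over a background of 2.18. The first and second of these passed, while the third was the highest promoter value of the 9 genes in VAL replicate 1 and exceeded that of 93.1% of the protein coding genes there. The summits lay 127, 90 and 61 bp upstream of the TSS in OCI-Ly1, VAL replicate 2 and VAL replicate 1, at most 66 bp from each other, and each had a motif within 50 bp. The pseudogene RPL6P9 has its TSS about 2 kb away (2050 to 2116 bp from the summits) and so falls in the same window.

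**Figure D2:**
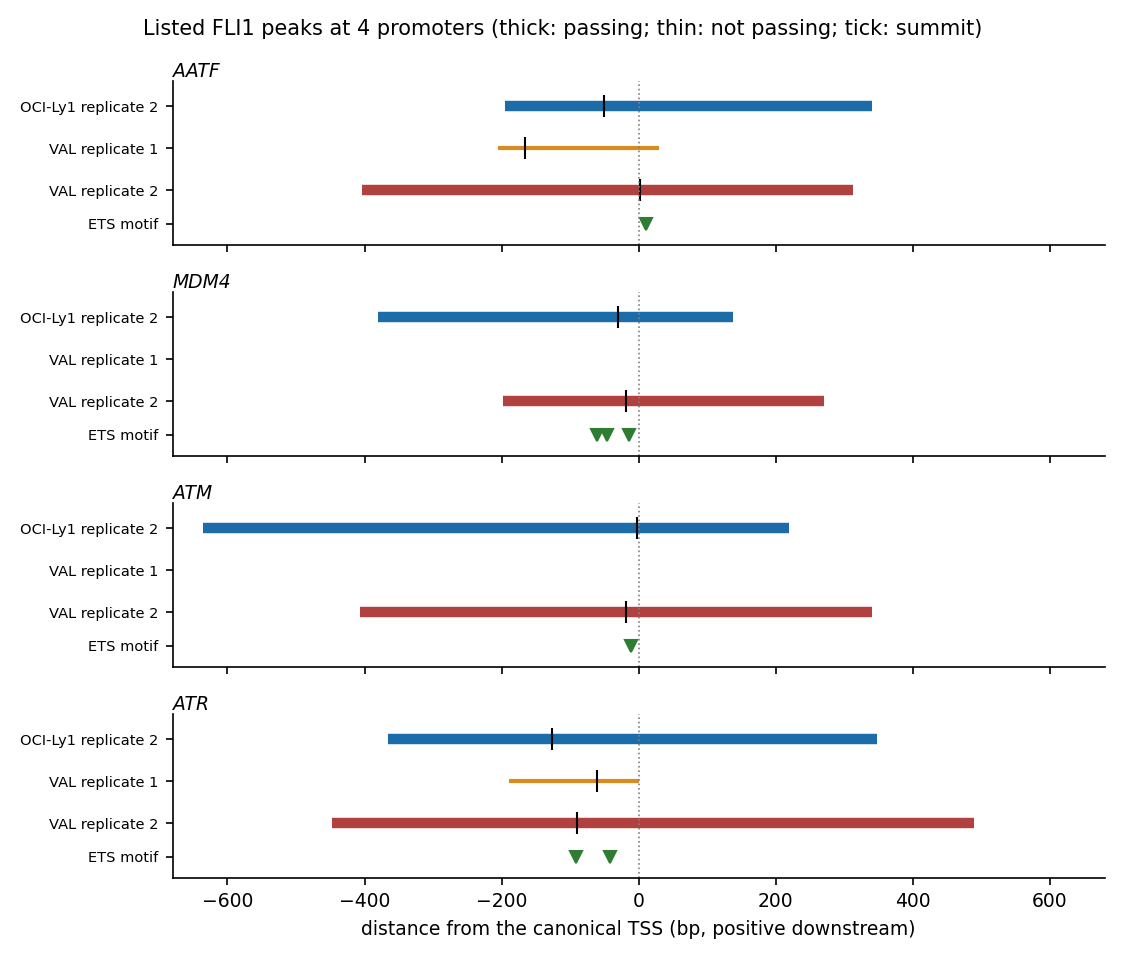
Listed FLI1 peaks are drawn as bars against the distance from the canonical TSS in bp, 1 row per library, with thick bars for passing peaks, ticks for summits and triangles for the motif. At the 4 promoters the peaks of OCI-Ly1 and VAL replicate 2 cover the TSS, whereas VAL replicate 1 has thin bars at AATF and ATR and none at MDM4 and ATM.

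By inferred reads the order in OCI-Ly1 was MDM4 (20 reads, exact Poisson 95% interval 12.2 to 30.9), ATR (19, 11.4 to 29.7), ATM (13, 6.92 to 22.2) and AATF (9, 4.12 to 17.1). The intervals overlapped throughout. They cover counting error only and belong to the peaks chosen as best, so no difference between genes was tested with them. In VAL replicate 2 it was MDM4 (27, 17.8 to 39.3), ATM and AATF (11 each, 5.49 to 19.7) and ATR (8, 3.45 to 15.8). There the intervals of MDM4 and ATR did not overlap, but their local backgrounds were 1.08 and 0.278 reads, and whether the genes differed was not tested. Whether ATR and AATF changed places between the lines cannot be tested, since OCI-Ly1 has 1 usable library and the libraries differ in depth and background.

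MDM2 (ENSG00000135679; chromosome 12, 69201957 to 69239324), the ubiquitin ligase of p53, came closest to the threshold among the 5 genes that did not pass. Its best peak in OCI-Ly1 had a -log10 q of 2.30, a fold of 4.46 and 5 reads, 1 read under the fewest of any passing peak, at 785 bp upstream of the canonical TSS. The best peaks of VAL replicate 1 (-log10 q 0.328) and VAL replicate 2 (1.68) lay elsewhere, 57 bp upstream of the TSS and 38053 bp downstream beyond the end of the gene. No peak passed in the gene or 10 kb to either side of it in any library.

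PPM1D (ENSG00000170836; chromosome 17, 58677554 to 58743641), CHEK2 (ENSG00000183765; chromosome 22, 29083731 to 29138410) and TP53BP1 (ENSG00000067369; chromosome 15, 43695259 to 43802926) had low values throughout. At PPM1D the best promoter values were 0.875 in OCI-Ly1 and 0.952 in VAL replicate 2, with 4 and 3 reads, and VAL replicate 1 listed no promoter peak. CHEK2 had 1.01 in OCI-Ly1, 0.285 in VAL replicate 1 and 0.952 in VAL replicate 2. TP53BP1 had 1.42, 0.183 and 1.51 in the same order. These values are ordinary ones, since between 19.7% and 62.2% of the protein coding genes had a lower value in the same library. For CHEK2 and TP53BP1 none of these best peaks lay at the canonical TSS: they were 8885 to 74955 bp downstream of it, near internal TSS. The best peak of PPM1D lay 298 bp downstream of its canonical TSS in OCI-Ly1. In VAL replicate 2 it lay in an intron 32384 bp downstream, and a listed peak 295 bp upstream of the TSS had the same -log10 q of 0.952. Within 500 bp of the canonical TSS, the highest -log10 q was 0.284 at CHEK2 (VAL replicate 2, 2 reads) and 0.344 at TP53BP1 (OCI-Ly1, 2 reads). No peak passed in or within 10 kb of these 3 genes, the highest value being 2.38 in TP53BP1 in VAL replicate 1. With a detection limit of at least 6 reads at a summit, a weaker peak at these promoters would not have been detectable at this depth.

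CDKN1A (ENSG00000124762; chromosome 6, 36644237 to 36655114) had a highest promoter -log10 q of 1.36 in OCI-Ly1, from 4 reads, and 0.952 in VAL replicate 2, from 3 reads. VAL replicate 1 listed no peak within 3 kb of its TSS. The promoter therefore did not pass in any library, and the peaks of OCI-Ly1 and VAL replicate 2 were 1802 bp apart. The gene did hold 1 passing peak outside the promoter window, in VAL replicate 2 alone, in an intron from 36650684 to 36651666 with its summit 4266 bp after the canonical TSS. That peak had a -log10 q of 3.51, a fold of 5.28 and 6 reads, the fewest with which a peak of the library passed, and no motif within 50 bp of its summit. Listed peaks overlapped it in OCI-Ly1 (-log10 q 0.875) and VAL replicate 1 (0.118), with summits 939 and 923 bp away.

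**Figure D3:**
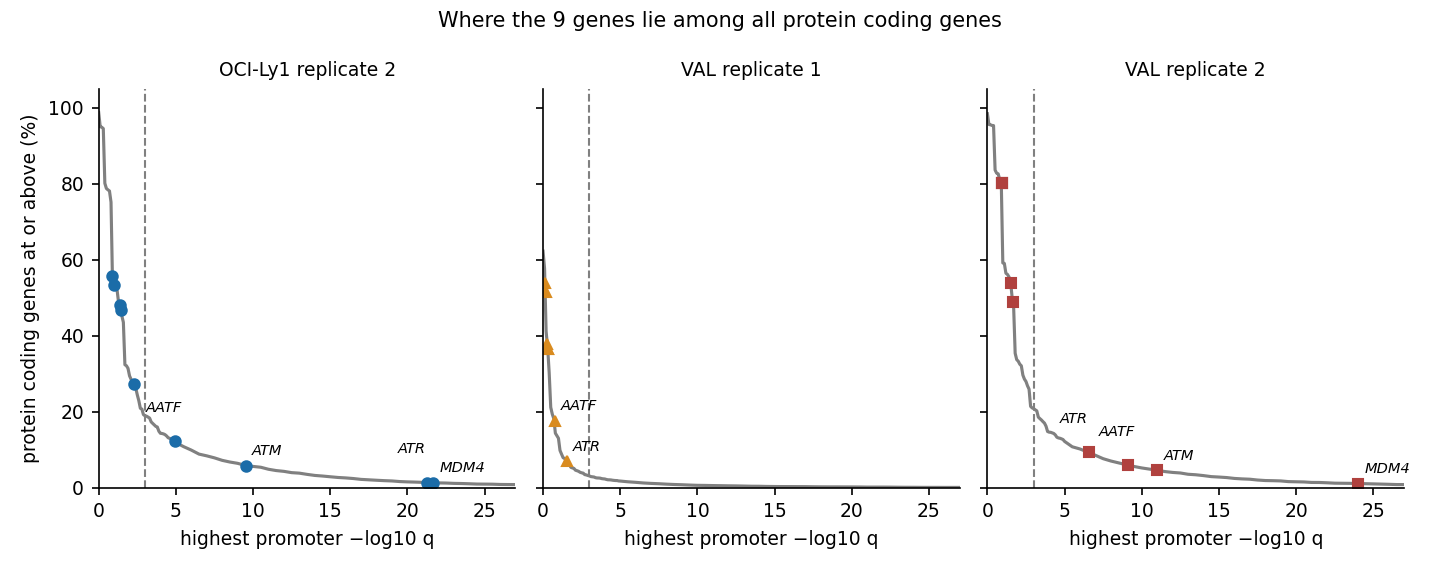
For each library, the grey line gives the percent of all protein coding genes whose highest promoter -log10 q is at or above the value on the horizontal axis, the symbols are the genes of this set with a listed promoter peak, and the dashed line is the threshold of 3. MDM4 lies near the right end in OCI-Ly1 and VAL replicate 2, and the unlabelled symbols left of the line are genes that did not pass.

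The motif lay within 100 bp of the canonical TSS in 4 of the 4 genes that passed in both lines and in 0 of the other 5. Of the protein coding genes with the motif within 100 bp of the canonical TSS, 51.5% passed in OCI-Ly1, 11.1% in VAL replicate 1 and 51.0% in VAL replicate 2. Of those without it, 13.7%, 1.81% and 16.0% did. Measured from the summit, 3 of the 4 passing peaks had the motif within 50 bp in OCI-Ly1 (all but AATF), against 52.2% of the passing best peaks of protein coding genes. In VAL replicate 2 all 4 had it, against 45.8%. VAL replicate 1 had no passing peak among the 9 genes, and 63.5% of its passing best peaks had the motif there. Whether the motif had a part in these peaks was not tested. The G and C content within 250 bp of the canonical TSS was 61.3 to 67.7% at the 4 genes and 55.7 to 72.5% at the other 5, with a median of 64.7% over all protein coding genes.

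Most promoters that passed in both OCI-Ly1 and VAL replicate 2 did not pass in VAL replicate 1, although most of those as strong as MDM4 did. Of the 2523 protein coding genes with a passing promoter peak in both OCI-Ly1 and VAL replicate 2, 551 (21.8%) passed in VAL replicate 1, and for 69.0% a listed peak of VAL replicate 1 overlapped the peak of VAL replicate 2. Of AATF, MDM4, ATM and ATR none passed there, and AATF and ATR had such an overlapping peak.

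The same promoter rule was applied to 70 further genes of the pathway in 4 lists, also chosen with earlier results of these data known. Their shares stand against 19.0%, 3.14% and 20.8% of all protein coding genes in OCI-Ly1, VAL replicate 1 and VAL replicate 2. Of 20 damage sensors and kinases, 11 passed in OCI-Ly1 (55.0%), 12 in VAL replicate 2 (60.0%) and none in VAL replicate 1. Named by rank, HUS1 and RAD1, which belong to the clamp that helps to activate ATR, reached 19.6 and 16.5 on the -log10 q scale in OCI-Ly1, and 9.48 and 7.90 in VAL replicate 2. NBN and RAD50, 2 subunits of the complex that recruits ATM to breaks, had 13.6 and 8.75 in OCI-Ly1 and 14.2 and 10.1 in VAL replicate 2. CHEK1, the main effector kinase of ATR, had 0.496 and 0.435 in these libraries and did not pass.

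Of 16 genes for p53 and its control, 7 passed in OCI-Ly1 (43.8%), 1 in VAL replicate 1 (6.25%) and 6 in VAL replicate 2 (37.5%). In both lines 3 passed (18.8%), against 12.6% of all protein coding genes. The acetyltransferase gene EP300 (17.0 in OCI-Ly1, 17.6 in VAL replicate 2) and USP7 (24.0 and 3.76), which removes ubiquitin from MDM2 and p53, passed in both lines. So did RPL11, a ribosomal protein that binds MDM2, with 5.08 and 3.79, and the ubiquitin ligase gene RCHY1 passed in VAL replicate 2 alone (8.08, against 2.31 in OCI-Ly1).

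Of 28 p53 target genes, 9 passed in OCI-Ly1 (32.1%), 9 in VAL replicate 2 (32.1%) and none in VAL replicate 1. In both lines 5 passed (17.9%), against 12.6% of all protein coding genes. ZMAT3, an RNA-binding protein gene, had 16.1 in OCI-Ly1 and 21.5 in VAL replicate 2. RRM2B, a subunit of ribonucleotide reductase, had 7.91 and 12.8, PIDD1, a death domain protein, 10.9 and 7.90, and FBXW7, a ubiquitin ligase subunit, 12.8 and 3.27. In OCI-Ly1 and in VAL replicate 2 the share of the p53 targets was the lowest of the 4 lists.

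Of 6 genes whose products work with AATF, 3 passed in OCI-Ly1 (50%), 1 in VAL replicate 1 (16.7%) and 4 in VAL replicate 2 (66.7%). NOL10, a partner of AATF in the nucleolus, was the 1 gene of all the lists that passed in each of the 3 libraries, at a -log10 q of 18.0 in OCI-Ly1 and of 17.3 and 22.2 in replicates 1 and 2 of VAL. The histone deacetylase gene HDAC1 passed in both lines, at 5.19 in each of OCI-Ly1 and VAL replicate 2. DAPK3, a kinase that binds AATF, passed in OCI-Ly1 alone (8.46, against 2.70 in VAL replicate 2), and RB1, the retinoblastoma protein gene, in VAL replicate 2 alone (6.15, against 2.004 in OCI-Ly1). Over the 70 genes, 42.9% passed in OCI-Ly1 and 44.3% in VAL replicate 2, against 44.4% of the 9 genes in each. In both lines 30% of the 70 passed and in either line 58.6%, against 44.4% of the 9 genes and, over all protein coding genes, 12.6% and 27.4%. With the closest TSS only, 22 of the 70 and 4 of the 9 genes passed in each of OCI-Ly1 and VAL replicate 2. No share over all protein coding genes is given for that setting, so these counts have no baseline here.

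**Figure D4:**
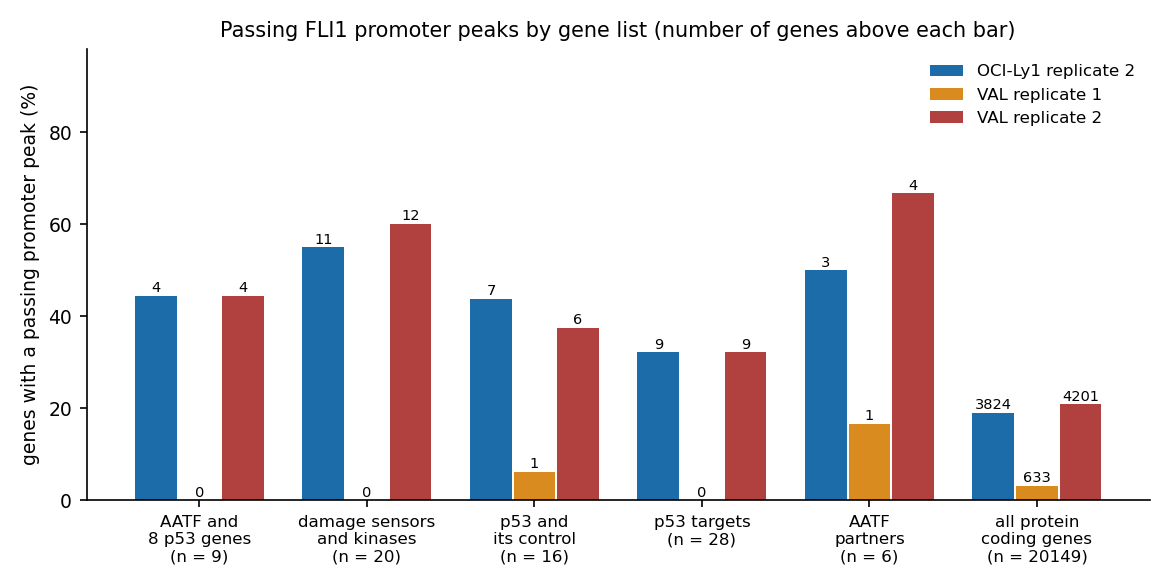
Bars give the percent of the genes of each list with a passing FLI1 promoter peak in 1 library, with the number of genes above each bar and all protein coding genes at the right. The bars of the damage sensors and kinases reach 55.0% and 60.0%, and those of the p53 targets 32.1% in both of these libraries.

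The genes whose values were most like those of AATF were found from the percent of protein coding genes below each gene in the 3 libraries. WDR73 (-log10 q 5.10, 0.710 and 9.19 in OCI-Ly1, VAL replicate 1 and VAL replicate 2), NCOA2 (4.99, 0.702 and 8.89) and RPP14 (5.45, 0.653 and 8.95) were the nearest, at distances of 0.502, 0.623 and 1.79 percentile points. In the study's ChIP-qPCR, AATF was among the target promoters and GAPDH was the negative control region. The paper also names AATF among the transcripts that FLI1 positively regulates. In the peak lists, GAPDH lay 4.46 percentile points from AATF by the same measure, farther than WDR73, NCOA2 and RPP14. The GAPDH promoter passed in OCI-Ly1 (-log10 q 3.60, 8 reads) and VAL replicate 2 (8.05, 11 reads) and not in VAL replicate 1 (0.749). Its summits lay 114 to 676 bp downstream of its canonical TSS, with no motif within 50 bp. Where the GAPDH amplicon of that qPCR lies relative to these summits was not examined.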

How the data were processed

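FLI1 ChIP-Seq peak lists of OCI-Ly1 and VAL were analysed, 1 list per library. Mapping by the authors used bowtie2 and GRCh37, and duplicates, reads with several positions and those under a mapping quality of 10 were removed, whereas the submitters' processing notes list CASAVA 1.4 and BWA. HOMER (FDR 0.001) is named in the methods, but the deposited lists have the 10 columns that MACS2 writes, and their control and settings are not given in the sources used here. Fold enrichment, a ratio of the pileup to the local background, -log10 p and -log10 q are the deposited values of the peak caller. The deposited score is a rounded multiple of the -log10 p and served no comparison.

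TSS were taken from GENCODE release 44 on GRCh37, and no peak ended beyond a chromosome of this build. Reads and background at a summit were inferred from fold = (reads + 1) / (background + 1) and the Poisson p-value, which gave a solution for 98.9 to 99.9% of the passing peaks of a library. Depth is known only through these reads, and Poisson intervals cover counting error only. No test was run, since OCI-Ly1 has 1 usable library, and counts are set beside those of all protein coding genes. A gene without a listed promoter peak entered medians as 0. The 9 genes and the lists were chosen with earlier results of these data known. Named besides them are genes sharing a peak, the 4 genes per list that passed in the most libraries (ties by mean -log10 q), the 3 genes nearest to AATF, and GAPDH. CHEK1 and the genes that only the closing section names, MRE11 and MDC1 among them, were picked after their values were seen. Alternatives covered the q-value threshold, fold, window, TSS set, summit, closest TSS, motif and replicates. On simulated data the functions recovered 2000 of 2000 pairs of reads and background, 200 of 200 planted genes and 300 of 300 planted motifs. Scripts ran under python 3.11.15 with scipy 1.17.1, pandas 2.3.3, numpy 2.4.6, pysam 0.24.0 and matplotlib 3.10.9, and samtools 1.23.1 indexed the genome.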

Additional observations from a re-analysis of the deposited data

How the results depend on the processing

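The 4 genes AATF, MDM4, ATM and ATR passed in OCI-Ly1 and VAL replicate 2 with a minimum fold of 4, a window of 1 kb, TSS of coding transcripts or the 5′ end only, peak summits or the closest TSS only. At a -log10 q of at least 5, AATF was lost in OCI-Ly1. With all listed peaks, 9, 7 and 9 of the 9 genes counted in OCI-Ly1, VAL replicate 1 and VAL replicate 2, 9 in either line and 9 in both, and 70, 52 and 70 of the 70 pathway genes. Of all protein coding genes, 98.8%, 74.9% and 98.5% had a listed promoter peak in these libraries. Leaving out 1 library at a time, 4 genes passed in either line each time and 0 to 4 in both, the 0 being without VAL replicate 2, on which the VAL values rest, and without OCI-Ly1 no count for both lines could be made. With CCGGAAGT, 1 gene in OCI-Ly1 and 2 in VAL replicate 2 had the motif at the summit, and with all listed peaks 1 in VAL replicate 1 had CCGGAAA or CCGGAAG there. No share over all protein coding genes is given for these 2 settings. Of the 70 genes, 30 in OCI-Ly1, 2 in VAL replicate 1 and 31 in VAL replicate 2 passed in the main setting. At a -log10 q of at least 5, 20, 1 and 18 passed in the same order, against 11.9%, 1.79% and 12.2% of all protein coding genes. With the 5′ end only, 25, 1 and 27 did, against 16.1%, 2.61% and 17.4% of all protein coding genes. With the closest TSS only, 22, 2 and 22 did, and no share over all genes is given for that setting. Of 92 recomputed values of single genes, none crossed the threshold. The VAL replicates differed too much for their spread to show stability, and in VAL replicate 2 MDM2 fell from 1.68 to 1.05 and CHEK2 from 0.952 to 0.284 with the 5′ end only. No paired analysis was possible because no test was run and OCI-Ly1 replicate 1 has no usable list. Sites with fewer than 6 reads at the summit (8 in VAL replicate 1) are out of reach at this depth.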

Other observations

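Among the 20 damage sensors and kinases, 11 passed in both lines (55%), against 12.6% of all protein coding genes. The genes around the clamp that loads at stalled forks were picked from this list after the values were seen. None of them passed in VAL replicate 1. HUS1, RAD1 and RAD9A, its 3 subunits, passed in both lines, with RAD9A at a -log10 q of 8.97 in OCI-Ly1 and 3.99 in VAL replicate 2. RAD17, part of the clamp loader, had 4.71 and 7.68, and TOPBP1, the activator of ATR that the clamp recruits, had 7.59 and 8.38. ATRIP, the binding partner of ATR, had 0.873 and 1.67 and did not pass.

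In the complex that recruits ATM, NBN and RAD50 passed while MRE11, the nuclease subunit, had 0.873 in OCI-Ly1, 0.435 in VAL replicate 2 and no listed promoter peak in VAL replicate 1. MDC1, the scaffold at double-strand breaks, had 2.43 and 2.67 in OCI-Ly1 and VAL replicate 2, just under the threshold. MRE11 and MDC1 were also picked after the values were seen.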
